A study of Mus musculus with 8 samples.

Results

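The genes described here are Hmgcs1, Idi1, Fdps, Fdft1, Sqle, Lss and Dhcr7, enzymes of cholesterol synthesis, and Insig1, a sterol-responsive brake on the same pathway. These 8 genes were taken by name, with earlier results of these data known. Every probe that the platform annotation gave to their symbols was read. Of the 8 genes, 7 had a probe, 11 probes in all, and all 7 were among the 8830 genes tested in the series. Fdft1 (squalene synthase) had no probe in the annotation used and was not analysed here. The samples were 4 GRHL2 knockout (KO) clones and 4 GRHL2 wildtype (WT) subclones of V6.5, a mouse embryonic stem cell line, with 1 Illumina MouseRef-8 bead array each. Both groups were kept in the same serum-containing medium and had LIF and the GSK and MEK inhibitors (2i) withdrawn for 3 days, which turns naive stem cells into epiblast-like cells. GRHL2 is a transcription factor of epithelia, and the series asks what it does for the transcriptional network once naive pluripotency is left. The labels say neither how the gene was disrupted nor whether the 4 KO clones arose independently, so the p-values measure only the spread between these arrays, which may in part be technical.

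Animal cells build cholesterol from acetyl-CoA through mevalonate, isoprenoid units, squalene and lanosterol. When membrane sterol is low, the protein SCAP carries the membrane-bound factor SREBP2 from the endoplasmic reticulum to the Golgi, where it is cleaved and released to switch on genes of nearly every step. When sterol is high, INSIG proteins hold SCAP back. Insig1 is itself a target of SREBP2, which closes a feedback loop.

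The promoters of the genes whose levels the results turn on are shown for the letters known from SREBP2 targets: the sterol regulatory element TCACNCCAC, bound by SREBP2, and CCAAT, bound by its partner NF-Y, each searched on both strands. The RefSeq promoter table (GRCm38.p6) held windows of 5 measured genes, Hmgcs1, Idi1, Lss, Insig1 and Dhcr7. The runs below are the 250 bases before the annotated start, all on the + strand, 5′ to 3′, and capitals mark matches to TCACNCCAC or CCAAT, the latter as ATTGG where it lies on the other strand. They lie at chr13:119690101-119690350 for Hmgcs1, chr13:8885356-8885605 for Idi1, chr10:76531355-76531604 for Lss and chr5:28071162-28071411 for Insig1.
Hmgcs1: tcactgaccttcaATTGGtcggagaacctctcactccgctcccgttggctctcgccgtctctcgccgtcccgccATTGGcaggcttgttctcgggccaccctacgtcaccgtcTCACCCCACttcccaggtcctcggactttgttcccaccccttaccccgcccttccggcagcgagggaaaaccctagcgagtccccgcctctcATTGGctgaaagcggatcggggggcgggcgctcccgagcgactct
Idi1: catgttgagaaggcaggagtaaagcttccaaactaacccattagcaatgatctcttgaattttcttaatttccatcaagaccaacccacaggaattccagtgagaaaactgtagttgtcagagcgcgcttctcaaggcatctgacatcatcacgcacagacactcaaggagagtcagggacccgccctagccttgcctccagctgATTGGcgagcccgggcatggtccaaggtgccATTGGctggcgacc
Lss: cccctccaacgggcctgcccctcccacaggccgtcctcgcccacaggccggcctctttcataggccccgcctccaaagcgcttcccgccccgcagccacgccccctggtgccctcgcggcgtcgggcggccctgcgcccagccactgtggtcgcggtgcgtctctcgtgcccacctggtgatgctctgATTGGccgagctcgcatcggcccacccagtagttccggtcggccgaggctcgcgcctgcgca
Insig1: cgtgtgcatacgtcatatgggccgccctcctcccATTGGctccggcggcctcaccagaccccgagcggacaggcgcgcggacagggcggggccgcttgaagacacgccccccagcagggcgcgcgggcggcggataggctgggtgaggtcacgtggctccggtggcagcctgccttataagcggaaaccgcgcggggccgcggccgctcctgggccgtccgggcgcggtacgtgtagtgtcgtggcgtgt
The sterol regulatory element was matched in Hmgcs1 alone among the 5 genes, from -137 to -129 relative to the start, by letters that 1.24% of the 32851 windows of 300 bases in the table held. CCAAT was matched in at least 1 window of all 5 genes (37.4% of all windows), and GGGCGG, the letters bound by Sp1, likewise in all 5 (35.7%). Dhcr7 had 3 windows, with CCAAT in window 3 alone and GGGCGG in windows 1 and 3. The shares of all windows count single windows, so the counts of genes are not directly comparable with them. AACCGGTT, the letters that grainyhead factors bind, was added to the search after values had been seen and was matched in none of these windows (0.146% of all windows). These are matches of letters, not measured binding, and other spellings of each element were not searched.

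An array detected 12414 to 13250 of its 25697 probes. The KO arrays were dimmer as a whole: mean intensity before normalization was 508 ± 51.5 on KO arrays and 703 ± 32.4 on WT arrays (SD, n = 4 each; exact two-sided permutation p = 0.0286, the smallest that 4 against 4 allows). All 11 probes of the 7 genes were dimmer on average on KO arrays before normalization, as were 98.4% of all genes tested. The values below are therefore log2 intensities after background correction and quantile normalization, which places every array on the same distribution, and a change is a change relative to the other genes on the arrays. Grhl2 was 7.92, 7.86, 7.06 and 7.99 on the KO arrays, against 9.62, 8.72, 8.16 and 8.87 on the WT arrays (log2 change -1.13, SE 0.30, adjusted p = 0.0369), a call lost in 6 of 8 fits that left out 1 array (all but those without KO replicate 1 or WT replicate 3), with adjusted p up to 0.0835. The highest KO array, at 7.99, lay below the lowest WT array, at 8.16. Of the markers of pluripotent and epiblast-like cells, 7 of 7 were detected on all arrays. After normalization Pou3f1 and Utf1 among them rose in KO, by 0.88 and 0.46 (adjusted p = 0.0145 and 0.0190), beside 6.55% of all genes tested called higher. The other 5 did not pass. Of these, Otx2 was at -0.57 (adjusted p = 0.0711) and Dnmt3b at -0.15, while Sox2 was at 0.51, Pou5f1 at 0.25 and Fgf5 at 0.13. Of 7 feeder fibroblast markers, Thy1 and Dcn were detected on at least 4 arrays, with log2 changes of 0.22 and 0.07 that did not pass, and the other 5 on none. Of 6 visceral endoderm markers with a probe, Apoa1 was so detected (-0.20, not past the threshold). Of 7 trophoblast markers, Eomes, Gata3, Krt7 and Ascl2 were, with changes of -0.59, -1.27, -0.54 and -0.09 and a median of -0.56. None was past the threshold in limma (adjusted p = 0.0584 for Eomes and 0.0884 for Gata3). Eomes and Gata3 were at an unadjusted p under 0.05, as were 2826 of the 8830 genes tested. Summed over every probed marker of a list, undetected ones at background included, raw intensity was 1064 to 1439 on KO arrays and 1374 to 1543 on WT arrays for fibroblasts, 738 to 802 on KO arrays and 863 to 1122 on WT arrays for endoderm, and 956 to 992 on KO arrays and 1187 to 1561 on WT arrays for trophoblast. The part of these cells in the results below was not tested. Fewer cells of a type and less RNA per cell cannot be told apart in such bulk samples.

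In GRHL2 knockout cells the isoprenoid enzyme gene Idi1 and the lanosterol synthase gene Lss fell, to 47.7% and 56.0% of the WT level. Insig1 was 1.37-fold higher on the probe that stood for the gene. The sign of that probe turned under scalings that lowered the median of all genes (-0.018 with median scaling, -0.25 with no normalization between arrays), while relative to that median it stayed at 0.33. The other detected probes of Insig1 had changes of 0.04 and -0.29, which did not pass. Hmgcs1, Fdps, Sqle and Dhcr7 did not pass the test. Thus 3 of 7 measured members were called, 1 higher and 2 lower (limma, adjusted p under 0.05 over all genes tested), a share of 42.9%, beside 13.7% of all genes tested (6.55% higher and 7.17% lower in KO). The members and the lists below were chosen with earlier results of these data known, so such shares describe these genes and are no independent test. The median log2 change of the 7 genes was -0.23, with a range from -1.07 to 0.45, beside a median of 0.01 over all genes tested. All 7 passed the detection filter on both groups, each by a probe detected on all 8 arrays.

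**Figure D1:**
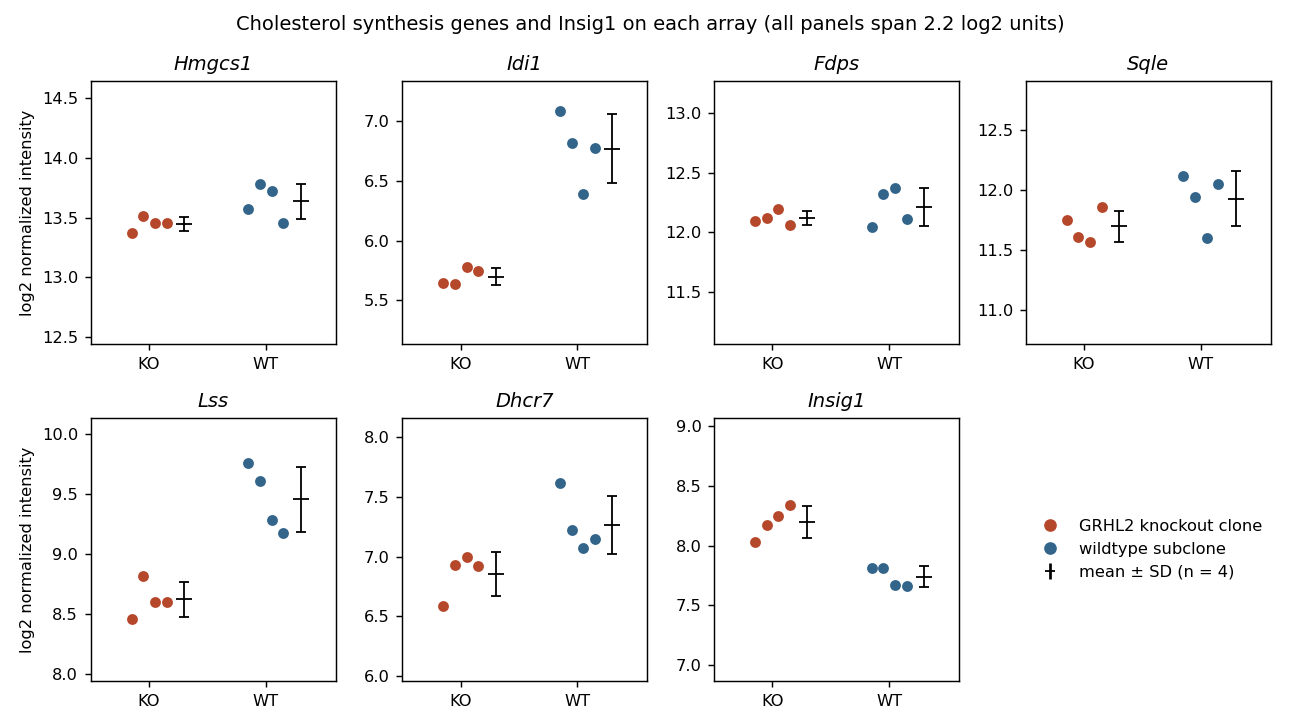
Log2 normalized intensity of the 7 measured genes on each array, KO clones left of WT subclones, with mean ± SD of 4 arrays. The KO and WT points do not overlap for Idi1, Lss, Dhcr7 and Insig1, as they do not for 23.2% of all genes tested. They overlap for Hmgcs1, Fdps and Sqle. Insig1 is shown by its brightest probe, and its other detected probes had changes of 0.04 and -0.29. The difference of the brightest probe turns its sign with median scaling (-0.018) or no normalization between arrays (-0.25), which lower the median of all genes. Relative to that median it stays at 0.33.

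Hmgcs1, the synthase that makes HMG-CoA at the entry to the pathway, was high on every array. It was 13.37, 13.51, 13.45 and 13.45 on the KO arrays, against 13.58, 13.78, 13.72 and 13.46 on the WT arrays. The groups overlapped, WT replicate 4 lying among the KO arrays. The log2 change was -0.19 (SE 0.11, 95% interval -0.43 to 0.05, adjusted p = 0.255).

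Idi1, isopentenyl-diphosphate isomerase, which interconverts the isoprenoid units from which longer chains are built, had the largest log2 change of the 7 genes as normalized here, whereas Lss had the larger one without background correction (-0.68 against -0.42), with an offset of 50 (-0.79 against -0.74), with brightness as a covariate (-1.17 against -0.87) and in the authors' deposited table (-0.63 against -0.42). Its intensity before normalization was 158, 148, 157 and 146 on the KO arrays, against 296, 251, 218 and 277 on the WT arrays. The KO values were close to the array medians of 132 to 141, with detection p-values of at most 0.00752. After normalization it was 5.64, 5.63, 5.78 and 5.75 on the KO arrays, against 7.09, 6.82, 6.39 and 6.78 on the WT arrays. All 4 KO arrays lay below all 4 WT arrays, and they were closer to each other (SD 0.07) than the WT arrays were (SD 0.29). The log2 change was -1.07 (SE 0.14, adjusted p = 0.00356), a 2.10-fold fall. Because the probe was dim, the size of the fall depended on background correction: it was -0.42 without it (adjusted p = 0.00710), and the authors' deposited table, whose values show no background correction, gave -0.42 (adjusted p = 0.00321). The call was kept in all 8 fits that left out 1 array, with log2 changes from -1.19 to -0.96.

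Fdps, farnesyl diphosphate synthase, joins these units into farnesyl diphosphate at the branch between sterols and prenylated proteins. It was 12.10, 12.12, 12.20 and 12.06 on the KO arrays, against 12.05, 12.32, 12.37 and 12.11 on the WT arrays. The lowest array of the 8 was a WT array, and the groups overlapped. The log2 change was -0.09 (95% interval -0.34 to 0.15, adjusted p = 0.597), the smallest of the 7 genes.

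Sqle, squalene epoxidase, carries out the oxygen-dependent step before ring closure and is a known control point. Its brighter probe was 11.75, 11.61, 11.57 and 11.85 on the KO arrays, against 12.12, 11.94, 11.60 and 12.05 on the WT arrays. WT replicate 3 lay within the range of the KO arrays and the other WT arrays above it. The log2 change was -0.23 (SE 0.14, 95% interval -0.53 to 0.07, adjusted p = 0.265). A second probe of Sqle had a change of 0.09 (adjusted p = 0.667 in the fit over all retained probes), so the probes differed in sign and neither passed.

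Lss, lanosterol synthase, closes the ring of oxidised squalene and so makes the first sterol of the pathway. Its intensity before normalization was 424, 439, 419 and 353 on the KO arrays, against 1221, 1039, 849 and 919 on the WT arrays. The mean was 40.6% of the WT mean, while over all genes tested the median was 74.6%. After normalization it was 8.46, 8.82, 8.60 and 8.60 on the KO arrays, against 9.76, 9.61, 9.29 and 9.18 on the WT arrays. The highest KO array stayed below the lowest WT array. The log2 change was -0.84 (SE 0.15, adjusted p = 0.0108), a 1.79-fold fall, and the call was kept in all 8 fits that left out 1 array, with changes from -0.93 to -0.74. The authors' deposited table gave -0.63 (adjusted p = 0.00988).

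Dhcr7, the sterol reductase that finishes cholesterol from its immediate precursor, was 6.59, 6.93, 7.0 and 6.92 on the KO arrays, against 7.61, 7.22, 7.07 and 7.15 on the WT arrays. The groups did not overlap, which also held for 23.2% of all genes tested, but they came close, at 7.0 on KO replicate 3 and 7.07 on WT replicate 3. The log2 change was -0.41 (SE 0.15, 95% interval -0.73 to -0.08, adjusted p = 0.0903), not past the threshold. KO replicate 1 and WT replicate 1 were the extremes, and without WT replicate 1 the change was -0.29. The authors' deposited table gave -0.18 (adjusted p = 0.121).

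Insig1 was measured by 4 probes, and they did not give 1 answer. The brightest, which stood for the gene, was 8.03, 8.17, 8.25 and 8.34 on the KO arrays, against 7.81, 7.82, 7.67 and 7.67 on the WT arrays. All KO arrays were higher after normalization (log2 change 0.45, SE 0.11, adjusted p = 0.0248), although before normalization the same probe was lower on all of them: 342, 319, 351 and 312 on the KO arrays, against 412, 384, 359.6 and 405 on the WT arrays. Its mean before normalization was thus 84.9% of WT, above the 74.6% of the median gene. The sign of its change turned with median scaling (-0.018) and with no normalization between arrays (-0.25), both of which lowered the median of all genes. Relative to that median its change stayed at 0.33, a value that both scalings share by construction. The first and the second probe, both detected on all 8 arrays, had changes of 0.04 and -0.29 (adjusted p = 0.897 and 0.269 in the fit over all retained probes, of which 13.0% were called), and the third was detected on no array. With the mean of the retained probes the change of Insig1 was 0.07 (adjusted p = 0.755). The call of the brightest probe was also lost in 5 of 8 fits that left out 1 array, those without KO replicate 2, 3 or 4 or WT replicate 2 or 4, with adjusted p up to 0.0700. The authors' deposited table called the same probe alone of the 4 (0.31, adjusted p = 0.00634, beside 8.62% of its probes called).

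**Figure D2:**
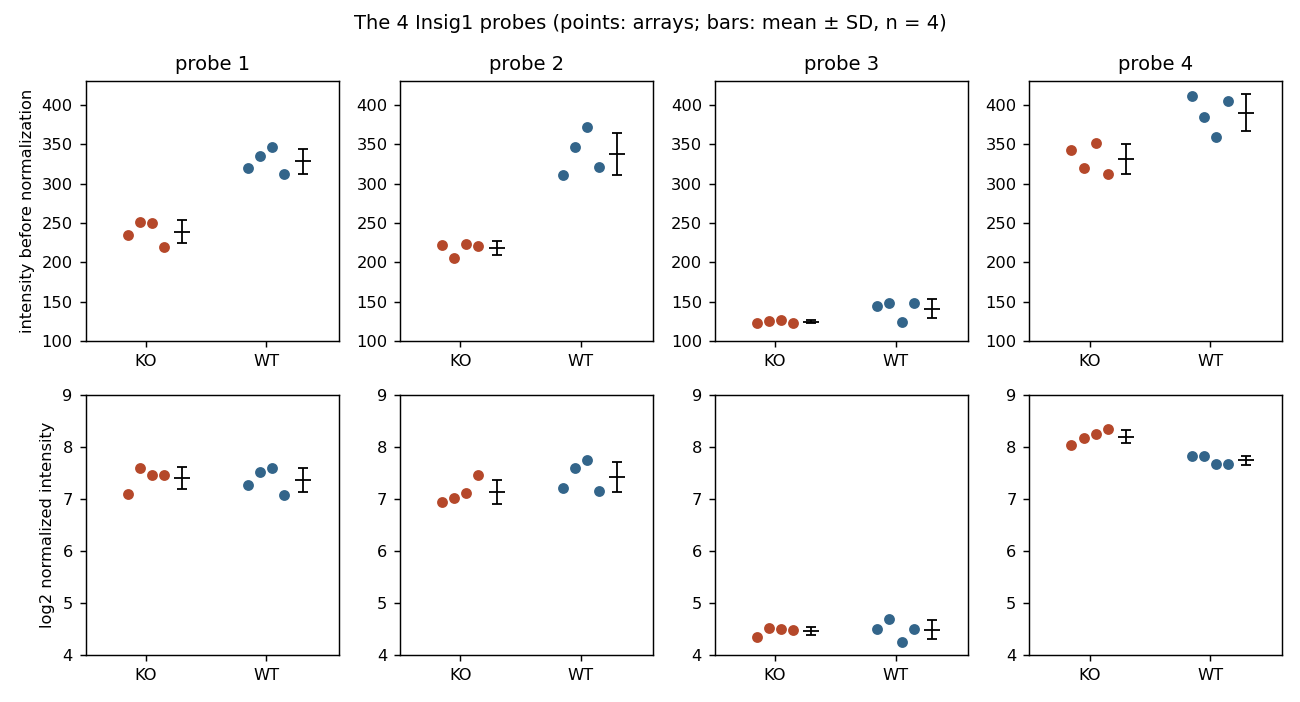
Intensity before normalization (upper row) and log2 normalized intensity (lower row) of the 4 Insig1 probes on each array, KO clones left of WT subclones, with mean ± SD of 4 arrays. Before normalization the KO mean of each probe is below its WT mean. After quantile normalization the groups separate on probe 4 alone, where KO is higher. That sign turns with median scaling (-0.018) or no normalization between arrays (-0.25). Relative to the median of all genes it does not turn (0.33, the same for both by construction).

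Where 0 lay on the scale of log2 changes depended on how the arrays were scaled. With median scaling the median of all genes tested shifted by -0.35, and with no normalization between arrays by -0.58. Over all genes, 578 were called higher and 633 lower, against 133 and 3474 with median scaling and 36 and 5735 with no normalization between arrays. Under both of these scalings 6 of 7 members, all but Insig1, were called lower in KO. Set against the shifted median, Idi1 was at -1.03 and Lss at -0.97 under both, close to their values after quantile normalization, Dhcr7 was at -0.47, Sqle at -0.28, Hmgcs1 at -0.10 and Fdps at -0.12. Insig1 was at 0.33 on its brightest probe, so the direction of that probe relative to the other genes did not turn. Median scaling only moved each array by a constant, so these values are the same under both scalings by construction and are not separate results. With the brightness of each array as a covariate, here its mean log2 intensity before normalization, limma called 0 of 7 members and 5 of all genes (1 and 1011 at an unadjusted p under 0.05). In that fit Idi1 had a change of -0.87 (adjusted p = 0.486) and Lss -1.17 (adjusted p = 0.354). Every KO array was dimmer than every WT array, so brightness and genotype cannot be told apart in that fit.

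**Figure D3:**
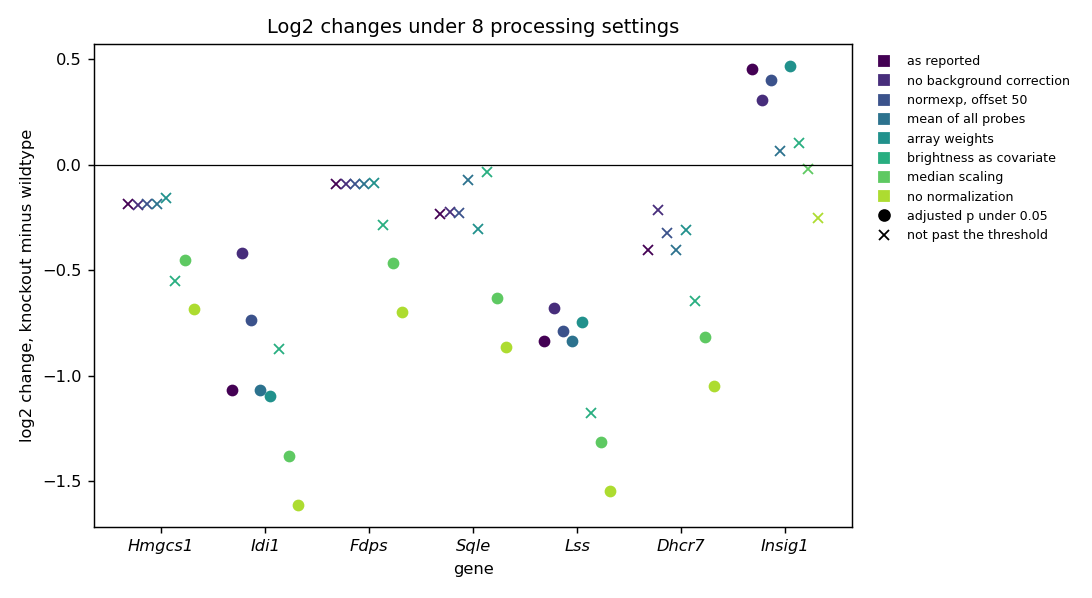
Log2 change of the 7 genes, KO minus WT, under 8 processing settings, with filled circles for changes past the threshold and crosses for the rest. Idi1 and Lss lie below 0 under all 8 settings and miss the threshold only with brightness as a covariate, while Insig1 lies from 0.47 with array weights to -0.25 with no normalization between arrays.

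The other enzymes of the pathway were read from a list of 15, of which 11 had a probe and all 11 were tested. Of these, 3 fell, 0 rose and 8 did not pass, which is 27.3% called, beside 13.7% of all genes tested. Msmo1, which with its partners strips methyl groups from lanosterol's carbon ring, was 10.32, 11.08, 10.89 and 10.85 on the KO arrays, against 11.96, 11.96, 11.79 and 11.69 on the WT arrays. The groups were well apart, and the log2 change was -1.07 (SE 0.16, adjusted p = 0.00614). Msmo1 lies on chromosome 8, whose genes were lower on KO replicate 1 than on the other KO arrays by a median of -0.43, and that array was the lowest for Msmo1. Without it the change was -0.91 (adjusted p = 0.00510). Hsd17b7, a ketosteroid reductase of the same demethylation steps, fell by 0.43 (adjusted p = 0.0203), and Cyp51, the lanosterol demethylase, fell by 0.50 (adjusted p = 0.0394). Cyp51 was 8.89, 9.26, 9.20 and 9.42 on the KO arrays, against 9.70, 9.82, 9.76 and 9.49 on the WT arrays. Its highest KO array and lowest WT array nearly met, and its call stood in 1 of 8 fits that left out an array, the one without KO replicate 4 (adjusted p of the others up to 0.101). Hsd17b7 lost its call in 4 of 8 such fits, those without KO replicate 3 or 4 or WT replicate 2 or 4, with adjusted p up to 0.0628.

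Among the enzymes that did not pass, Mvd, the decarboxylase just before Idi1 in the pathway, had a change of -0.50 (SE 0.19, adjusted p = 0.109). It too lies on chromosome 8 and was lowest on KO replicate 1, at 7.76, beside 8.50 to 8.58 on the other KO arrays and 8.56 to 9.0 on the WT arrays. Tm7sf2, a sterol reductase that acts after Cyp51, had a change of 0.38 in the other direction (adjusted p = 0.0828). Together with the 6 measured enzymes among the members, 17 of 22 listed enzymes were tested, of which 5 fell and 0 rose (29.4%, beside 13.7% of all genes), with a median log2 change of -0.23. Of these 17 genes, 15 had a change below 0, beside 4291 of 8830 genes tested.

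**Figure D4:**
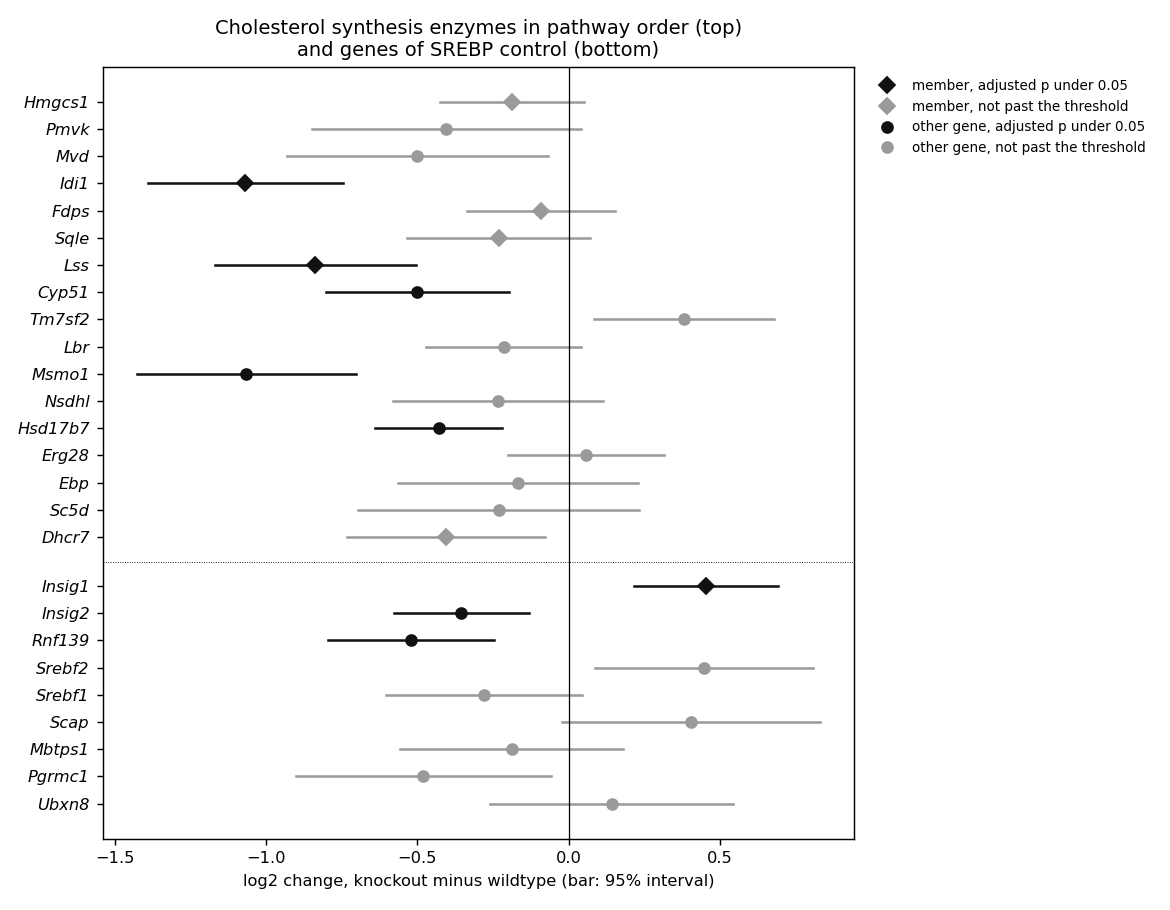
Log2 change, KO minus WT, with 95% intervals, for 17 cholesterol synthesis enzymes in the order of the pathway and, below the dotted line, 9 genes of SREBP control; diamonds mark members and black marks changes past the threshold. The 5 enzymes past the threshold (Idi1, Lss, Cyp51, Msmo1 and Hsd17b7) all lie below 0, while Insig1 lies above 0. Insig1 is shown by its brightest probe, and its other detected probes had changes of 0.04 and -0.29. The sign of Insig1 turns with median scaling (-0.018) or no normalization between arrays (-0.25). Relative to the median of all genes it does not turn (0.33, the same for both by construction).

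Genes that control SREBP were read from a list of 11, of which 8 were tested, 2 fell and 0 rose. This is 25% called, beside 13.7% of all genes tested. Insig2, the relative of Insig1, was 8.02, 7.84, 7.88 and 7.75 on the KO arrays, against 8.26, 8.29, 8.19 and 8.16 on the WT arrays. It fell by 0.35 (SE 0.10, adjusted p = 0.0450), the groups lying apart, but a second detected probe had -0.16 (adjusted p = 0.386 in the fit over all retained probes). Its call was lost without KO replicate 2, 3 or 4 or WT replicate 1, 2 or 4 (adjusted p up to 0.113). Rnf139, an endoplasmic reticulum ubiquitin ligase that binds INSIG proteins, fell by 0.52 (SE 0.12, adjusted p = 0.0255). Rnf139 was dim, at 141 to 150.0 before normalization on KO arrays and 184 to 209.5 on WT arrays, and without background correction its change was -0.15 (adjusted p = 0.0863). Its call was also lost without KO replicate 3 or WT replicate 1, 2 or 4 (adjusted p up to 0.0689). A second Rnf139 probe was detected on 2 KO arrays and 1 WT array and was not retained. Its mean after normalization lay the other way, at 5.03 in KO and 4.68 in WT. Srebf2, which encodes SREBP2, was 8.75, 9.03, 9.03 and 9.20 on the KO arrays, against 8.44, 8.59, 8.95 and 8.24 on the WT arrays. WT replicate 3 overlapped the KO arrays, and the change of 0.45 did not pass (SE 0.16, adjusted p = 0.0906), nor did that of Scap (0.40, adjusted p = 0.176).

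Fatty acid synthesis genes, which answer more to the related factor SREBP1, moved in both directions: of 12 listed, 11 were tested, 4 fell and 2 rose. This is 54.5% called, beside 13.7% of all genes tested (7.17% lower and 6.55% higher). Acly, which makes cytosolic acetyl-CoA for both pathways, was 12.36, 12.42, 12.46 and 12.44 on the KO arrays, against 13.17, 12.89, 12.85 and 12.90 on the WT arrays. These groups were clearly apart, and Acly fell by 0.53 (SE 0.11, adjusted p = 0.0145), a call kept in all 8 fits that left out 1 array. Acsl3, a long-chain acyl-CoA synthetase, fell by 0.93 (adjusted p = 0.0110) on its brightest probe, while a dim second probe had 0.24 (adjusted p = 0.383 in the fit over all retained probes). Averaged over these probes, its change was -0.34 (adjusted p = 0.0974). The desaturase gene Scd1 fell by 0.54 (adjusted p = 0.0468) and Aacs, which makes acetoacetyl-CoA from a ketone body, fell by 0.48 (adjusted p = 0.0455). The desaturase genes Scd2 and Fads1 rose, by 0.60 (adjusted p = 0.0186) and 0.39 (adjusted p = 0.0366), with signs that turned under no normalization between arrays (-0.11 and -0.24), for Fads1 also under median scaling (-0.0093) and for Scd2 also with array brightness as a covariate (-0.029). Relative to the median of all genes, Scd2 stayed at 0.47 and Fads1 at 0.34 under both scalings, which share these values by construction. The calls of Scd1, Aacs and Fads1 were each lost in 7 of 8 fits that left out 1 array, and stood without WT replicate 4, WT replicate 1 and KO replicate 4 in turn; that of Scd2 was lost without KO replicate 2.

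In the remaining lists 0 genes passed in limma. At an unadjusted p under 0.05 there were 1 of 4 uptake genes (Lpin1, 0.38), 0 of 4 LXR genes and 1 of 7 isoprenoid genes (Rabggta, 0.39). Over all genes tested, 2826 of 8830 were at such a p. Lpin1 and Rabggta were named after their values were seen. Of 8 sterol uptake and transport genes, 4 were tested, the brightest being Tmem97 (11.19 ± 0.08 in KO and 10.99 ± 0.18 in WT, SD, n = 4 each) and Npc2 (9.41 ± 0.23 in KO and 9.40 ± 0.31 in WT). Of 13 LXR targets and efflux genes, which respond to excess sterol, 4 were tested, with Apoe at 10.02 ± 0.02 in KO and 9.91 ± 0.22 in WT. Lpcat3 was 9.32 ± 0.14 in KO and 9.44 ± 0.31 in WT. It lies on chromosome 6, whose genes were higher on WT replicate 3 than on the other WT arrays by a median of 0.40. That array was the highest for Lpcat3, at 9.87. Of 13 genes of the isoprenoid branch, which leads to prenylated proteins, dolichol and coenzyme Q, 7 were tested, with Fnta at 13.27 ± 0.14 in KO and 13.33 ± 0.11 in WT. Like Msmo1, Fnta lies on chromosome 8 and was lowest on KO replicate 1, at 13.06. Rabggtb was 12.27 ± 0.06 in KO and 12.12 ± 0.07 in WT. Over the 6 lists outside the members, 45 genes were tested and 11 were called, 2 higher and 9 lower, which is 24.4% beside 13.7% of all genes.

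The pattern of the 7 members over the arrays was summed as the mean of their standardized levels, Insig1 included with its own sign. This mean was -0.80, -0.38, -0.33 and -0.29 on KO replicates 1 to 4 and 0.69, 0.81, 0.24 and 0.06 on WT replicates 1 to 4. KO replicate 1 was the lowest array, and WT replicates 3 and 4 lay closest to the KO arrays. The members did not follow this mean alike, although each was part of it. Pearson r with it was 0.96 for Lss, 0.90 for Idi1, 0.88 for Dhcr7, 0.82 for Hmgcs1, 0.57 for Sqle, 0.37 for Fdps and -0.63 for Insig1. The 5 genes outside the lists with the most similar pattern over the 8 arrays were Atrx, a chromatin remodeller (Pearson r = 0.98), Erdr1 (0.97), Nudt7, a peroxisomal hydrolase (0.97), Uap1, an enzyme of amino sugar synthesis (0.96), and Mcts1, a translation factor (0.96). Deviations from the group means gave r of 0.94, 0.91, 0.94, 0.84 and 0.82 for the same genes. These genes were the highest of the genes tested outside the lists, and the 8 points share the arrays, so the values only describe these arrays. Of the 5, Erdr1, Uap1 and Mcts1 were called lower in KO by limma (adjusted p = 0.00746, 0.0235 and 0.0256), beside 7.17% of all genes tested. They fell by 0.91, 0.57 and 0.46. The mean of the members was lower on every KO array than on every WT array, so genes chosen to follow it were bound to lean lower in KO.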

How the data were processed

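The authors deposited, per the file headers, a probe-level export (25697 probes, 8 arrays) with a mean bead intensity, its standard error (treated as a score and not used), a bead count and a detection p-value; the intensities were not normalized. The authors also deposited quantile-normalized log2 values and a knockout-minus-wildtype table of log2 fold changes, p-values and scores; the submitters' processing notes name limma. Intensities were background-corrected and quantile normalized here with neqc (limma 3.58.1, R 4.3.3; offset 16, background from detection p-values). Probes had to reach a detection p below 0.05 on 4 or more arrays, and the brightest stood for its gene (8830 genes; 23978 probes had 1 symbol, 1719 none). Genotypes were compared with lmFit and eBayes, two-sided, with Benjamini-Hochberg adjustment over all genes at 0.05; members' single probes were fitted among all 12790 retained probes. The fit was tested on simulated data with independent noise for each gene and array. Those data held no brightness difference between the groups, so that test does not bear on it. Named were all members, Grhl2, every called gene of the 6 further lists or else the 2 brightest, and the 5 genes of most similar pattern. Members and lists were chosen with earlier results of these data known. Alternatives covered background, scaling, filter, probes, moderation, weights, block, brightness, threshold and left-out arrays. The number of arrays limits the precision.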

Additional observations from a re-analysis of the deposited data

Results flagged for a closer look

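Single arrays that stood far from the other 3 of their group were looked for in 46 groups of 4 arrays, where chance marks about 1 group in 20. Acly was 13.17 on WT replicate 1, against 12.85 to 12.90 on the other WT arrays. Scd2 was 7.47 on WT replicate 1, against 7.67 to 7.70 on the other WT arrays. Grhl2 was 7.06 on KO replicate 3, against 7.86 to 7.99 on the other KO arrays. No member was marked.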

How the results depend on the processing

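For the 7 members, 127 of 147 alternative values kept their direction and their side of the threshold. Those of Hmgcs1, Fdps, Sqle and Dhcr7 (19 of 21 each) did so by staying uncalled. The setting without background correction and the authors' deposited values gave the same numbers, so they are not separate alternatives. Of the 147, 10 calls were lost, 8 were gained and 2 signs turned, both of Insig1 (-0.018 with median scaling, -0.25 with no normalization between arrays). Relative to the median of all genes Insig1 stayed at 0.33 on its brightest probe, the same under both scalings by construction. Fads1 turned under the same settings (-0.0093 and -0.24), as did Scd2 with no normalization (-0.11) and with brightness as a covariate (-0.029); relative to that median Fads1 stayed at 0.34 and Scd2 at 0.47 under both scalings. Called genes numbered 1211 as reported, 5771 with no normalization, 3607 with median scaling, 2175 with array weights, 5 with brightness as a covariate, 167 at a threshold of 0.01, and 510 to 1440 with 1 array left out (510 to 657 without KO replicate 2, 3 or 4 or WT replicate 1, 2 or 4). Called members numbered 3, and 6, 6, 3, 0, 1 and 2 to 3 in that order. Called genes of the wider lists numbered 11, and 35, 25, 14, 0, 1 and 4 to 9. Clone numbers did not pair the arrays (correlations of same-numbered deviations from -0.08 to 0.05; 1 of 4 KO arrays was closest to its own number). With the clone number as a replicate block, 671 genes, 2 members (Idi1 and Lss) and 5 wider genes were called. With the median in place of the mean, an alternative chosen after seeing the data, array brightness differed by -22.0, not -195 (KO minus WT). The cause of these shifts was not tested. Dim probes (Idi1, Rnf139) are limited by their signal over background.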
